A study of Ananas comosus with 3 samples.

Results

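The enzymes that remove peroxides and keep protein thiols reduced were examined in ripening pineapple flesh. The contigs of the set were chosen by name: cDNA elements whose deposited gene name held peroxidase, peroxiredoxin, thioredoxin, glutaredoxin, catalase, glutathione or dehydroascorbate, with superoxide dismutase and ferredoxin names left out. It held 73 of the 9278 cDNA elements on the array, grouped into 37 of the 7773 features that were measured on at least 2 slides. A feature was a contig (clones that the study had assembled into one transcript) or a clone without a contig number. The 37 contigs comprised 11 class III peroxidases, 3 ascorbate peroxidases, 1 monodehydroascorbate reductase, 1 catalase, 12 glutathione S-transferases, 2 other glutathione enzymes, 1 glutaredoxin, 4 thioredoxins and 2 peroxiredoxins. A peroxidase whose name held no other family was counted as class III. Of the 73 elements, 4 carried no gene name of their own in the full scans and joined through a contig number given to them after later sequencing. The paper sequenced such clones when they passed its tests at 1.5-fold or more, so these 4 were not picked independently of their values.

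Flesh of ripe mature yellow fruits was compared with flesh of unripe mature green fruits of field-grown Smooth Cayenne pineapple, clone C10, by labeling the RNA of the 2 stages with different dyes and hybridizing both to one slide. There were 3 such slides. Mature yellow fruits were labeled with Cy3 on replicates 1 and 3 and with Cy5 on replicate 2, the dye swap. All fruits came from one commercial clone, and the methods do not say which of the slides were experimental and which were biological repeats, so the spread between slides and the p-values may cover hybridization alone.

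Plant cells make hydrogen peroxide as a by-product of respiration, photorespiration and wall chemistry. Catalase breaks it down in peroxisomes, ascorbate peroxidases reduce it with vitamin C, which monodehydroascorbate reductase and glutathione reductase help to regenerate, and peroxiredoxins reduce it through reactive cysteines that thioredoxins recharge. Glutaredoxins reduce disulfides with glutathione, glutathione S-transferases couple glutathione to reactive compounds, and class III peroxidases are secreted enzymes that use peroxide to cross-link or loosen the cell wall. Because whole flesh was extracted, fewer cells of a type and less RNA per cell cannot be told apart in any of these values.

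Each slide carried every element in duplicate, and 4, 3 and 6 of the 146 redox spots on replicates 1, 2 and 3 were left out as abnormal. Signals were low, with a median element spot only 15.8 to 116 intensity units above local background in either channel, and replicate 2 was the brightest in mature green. At least 1 channel lay above the blank spots for 73.2%, 88.1% and 77.9% of the redox spots, against 83.4%, 92.2% and 83.7% of all element spots. The 75 elements named for bromelain, bromelain inhibitor or metallothionein, transcripts abundant in pineapple flesh, lay above the blanks on 94.5% to 96.7% of their spots. The photosynthesis marker names matched 1 element and the root marker names 0. Across all features, which are not independent of each other, the normalized ratios of the non-swapped slides correlated with r of 0.67, and each of them correlated with the dye swap at 0.37 to 0.41.

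Between mature green and mature yellow fruits 1 of the 37 redox contigs was called as changed, upward, meaning a fold of 1.5 or more together with a Benjamini-Hochberg adjusted p under 0.05 from limma over all features. The same rule called 0.129% of all features, 0.0515% upward and 0.0772% downward. These shares depended on how elements were grouped. With each element fitted on its own, 2.39% of all elements and 4.11% of the redox elements were called. With contig numbers of the full scans only, a setting chosen after seeing the data, 227 of 8176 features and 1 redox contig were called. With the grouping used here, folds of 1.5 or more were reached by 3 redox contigs (8.11%), 2 of them higher and 1 lower in mature yellow fruits. The share of all features was 5.24% (3.18% higher and 2.06% lower). The unadjusted p was under 0.05 for 6 redox contigs (16.2%), 4 of them higher and 2 lower, against 8.95% of all features (5.43% higher and 3.53% lower). The mean was higher in mature yellow fruits for 18 of the 37 contigs, 48.6% against 53.2% of all features. The median log2 ratio of the contigs, mature yellow over mature green, was -0.00042 beside 0.0075 for all features, and their median absolute log2 ratio was 0.0922 beside 0.0727. Loess sets the middle of each slide near 0, and the offset of 50 units added to every intensity before the logarithm shrinks the ratios of dim spots, so these medians carry little information on the set.

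**Figure D1:**
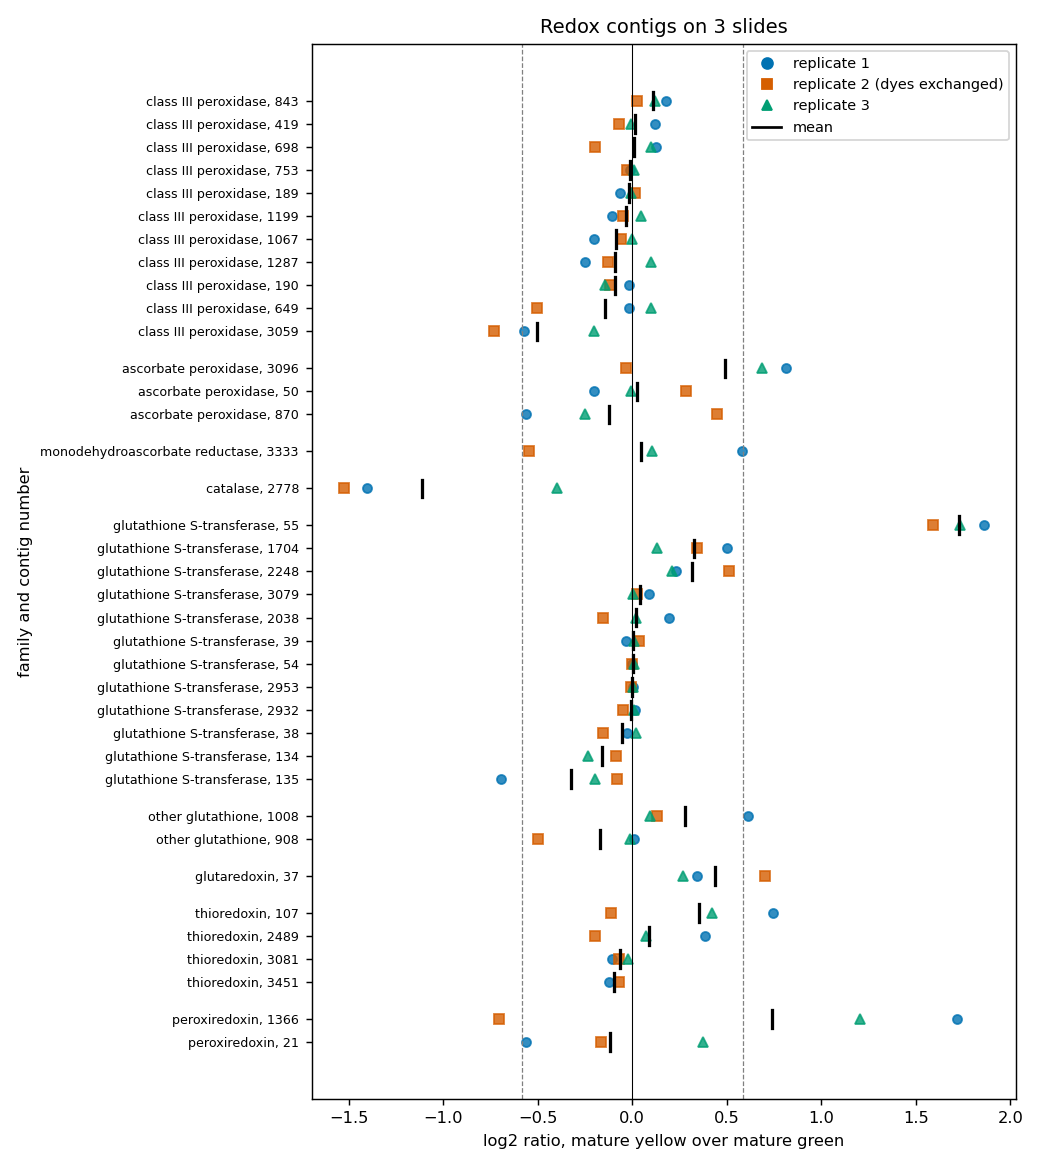
Log2 ratio of mature yellow over mature green fruits (horizontal axis) for the 37 redox contigs, ordered by family and mean. Symbols are the 3 slides, the short black bar is their mean, and the dashed lines mark a fold of 1.5 in either direction. Contig 55 lies right of the dashed line on every slide (1.59 to 1.86), the catalase lies left of 0 on every slide, and the upper of the peroxiredoxins has replicate 2 on the opposite side of 0 from replicates 1 and 3.

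The glutathione S-transferase contig 55 was the redox contig that rose in mature yellow fruits past the test. Its signal above background on replicates 1, 2 and 3 was 1065, 1043 and 714 intensity units in mature yellow fruits and 143, 455 and 94.9 in mature green fruits. The yellow signal was the higher on every slide, in either dye. The normalized log2 ratios of mature yellow over mature green were 1.86, 1.59 and 1.73, a mean of 1.73 ± 0.14 (SD, n = 3 slides) or 3.31-fold. The 95% confidence interval was 1.51 to 1.95 and limma gave an adjusted p of 0.0460. This placed it at percentile 99.8 of all features.

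Contig 55 was read by 2 clones, and they were alike in direction on every slide. Clone JBW097D12 gave log2 ratios of 1.42, 1.56 and 1.44, and clone JBW076E08 gave 2.31, 1.62 and 2.02. JBW076E08 had no sequence at first and was numbered after later sequencing, in the replicate 1 list alone. The paper sequenced such clones when they passed its tests at 1.5-fold or more, so the rise of this clone is not independent support. The contig was still called from JBW097D12 only, with a mean of 1.47 (adjusted p of 0.0118 from limma). That setting used contig numbers of the full scans only and was chosen after seeing the data. It called 227 of 8176 features, against 10 of 7773 with the settings of the report, so its adjusted p is not comparable with 0.0460. Both clones were called when each element was fitted on its own, with adjusted p of 0.0135 and 0.0290 from limma. This fit called 2.39% of all elements and 3 of the 73 redox elements (4.11%). The direction of the contig held in 17 of 17 alternative settings, with means from 1.04 to 2.24. Its call was lost without replicate 1, 2 or 3 in turn (adjusted p of 0.775, 0.0713 and 0.133 from limma) and in 5 further settings.

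None of the other 11 glutathione S-transferases reached 1.5-fold. Contig 1704 (0.50, 0.34 and 0.13 on replicates 1 to 3) and contig 2248 (0.23, 0.51 and 0.21) were higher in mature yellow fruits on every slide, and their means of 0.33 ± 0.19 and 0.32 ± 0.17 did not pass the adjusted test (adjusted p of 0.492 and 0.470 from limma). Contig 135, whose 4 clones all had a lower mean in mature yellow fruits (-0.46 to -0.21), was the lowest of the family with -0.69, -0.08 and -0.20. The mean, -0.32 ± 0.33, did not exceed its own SD (adjusted p of 0.606 from limma). Its clone at -0.46 was numbered after later sequencing. The remaining 8 contigs lay between -0.16 and 0.04. Of these, contig 134 was measured on replicates 2 and 3 only. Contig 1704 was dim, and in the deposited processed values it read 1.66 and 0.83 on replicates 1 and 2, so its ratio depended on the processing. cDNA spots can bind transcripts of close relatives, so values of single members of a gene family as large as this one are uncertain to that extent.

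Glutathione reductase returns oxidized glutathione to its reduced form and was read by clone JBW047A11. This was contig 1008's only clone, and its log2 ratios of 0.61, 0.13 and 0.10 all lay toward mature yellow fruits. The mean of 0.28 ± 0.29 did not exceed its spread (adjusted p of 0.621 from limma, 95% confidence interval -0.10 to 0.66). The lactoylglutathione lyase-like contig 908, a name given to the enzyme that clears methylglyoxal with glutathione, was near 0 on replicates 1 and 3 and lower on replicate 2 (0.01, -0.50 and -0.01), with a mean of -0.17 ± 0.29 (adjusted p of 0.786 from limma).

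The only catalase, described in the files as catalase 2 (contig 2778) and read by 1 clone, had the largest difference toward mature green fruits among the redox contigs. Its signals above background were 12.5, 34.5 and 13.2 intensity units in mature yellow fruits and 115, 382 and 44.1 in mature green fruits on replicates 1, 2 and 3. Mature green exceeded mature yellow on every slide and in both dye orientations. The mature yellow signals were low, beside limits from the blank spots of 9.9, 5.9 and 2.3 units. On no slide did the clone enter the authors' lists of spots past their test of 2 standard deviations. The log2 ratios were -1.40, -1.53 and -0.40 with a mean of -1.11 ± 0.62, 2.16-fold lower in mature yellow fruits, and a 95% confidence interval of -1.89 to -0.33. The unadjusted p was 0.0176 and the adjusted p 0.414, both from limma, so it did not pass the test over all features. The size of this ratio followed the background step. It was -2.95 with plain background subtraction (adjusted p of 0.0304 from limma) and -0.35 with no background correction, and in the table of processed values that the authors deposited it was -3.87 and -2.29 on replicates 1 and 2 with no value on replicate 3 (adjusted p of 1.4e-07 from limma). That last p rests on 2 values and on a variance moderated over all features of that table, so it does not measure their own spread alone.

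**Figure D2:**
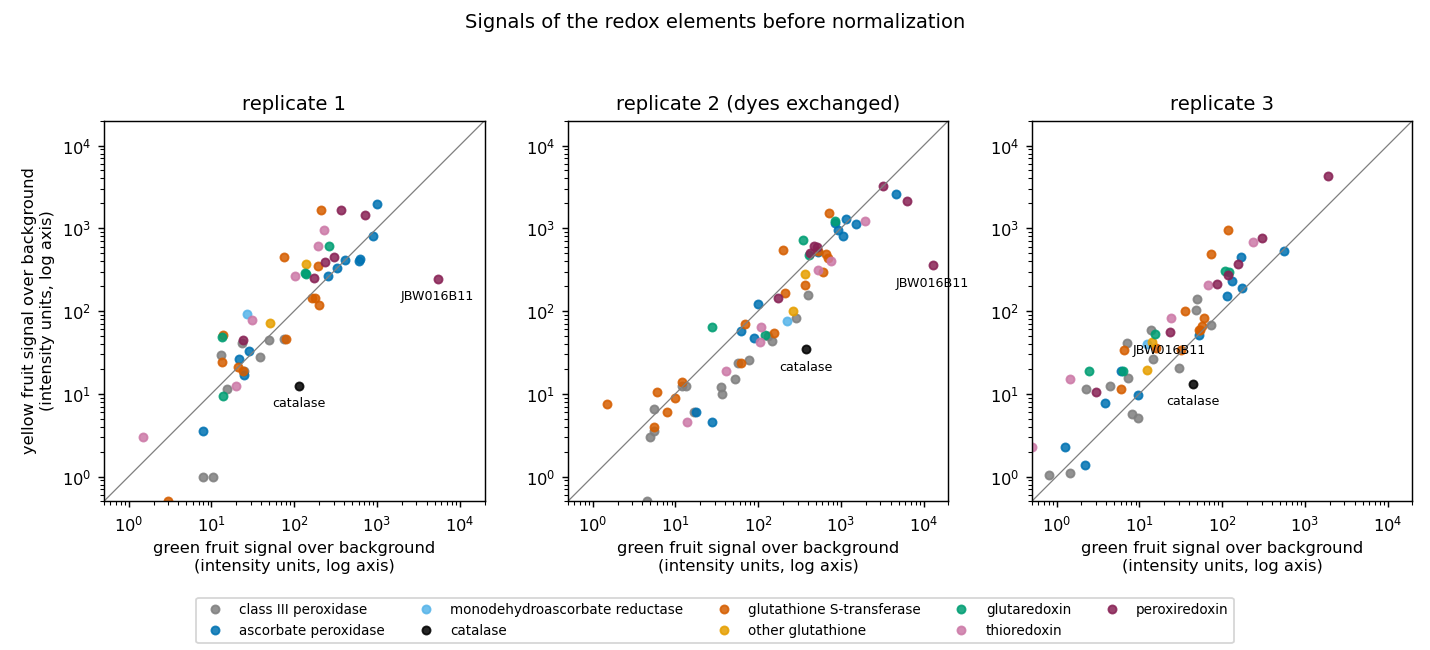
Signal above local background of each redox element before normalization, mature yellow (vertical axis) against mature green (horizontal axis), both on log axes in intensity units, with 1 panel per slide and colours for families. The line marks equal signals. Elements with both signals above 0 are drawn (54, 68 and 58 of 73). The catalase lies below the line on every slide, the peroxiredoxin clone JBW016B11 lies far below it on replicates 1 and 2 and not on replicate 3, and most class III peroxidases (grey) sit at the dim end.

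The peroxisomal ascorbate peroxidase, read by contig 3096's single clone JBW023A08, was the highest of its family at 0.81, -0.03 and 0.69 on replicates 1, 2 and 3. It was higher in mature yellow fruits on the 2 slides with the same dye orientation and near 0 on the dye swap, and its mean of 0.49 ± 0.46, or 1.40-fold, did not pass (adjusted p of 0.583 from limma). In the deposited processed values it was 1.85, 1.15 and 1.36 (adjusted p of 0.00541 from limma), so that this value depended on the processing. The replicate 3 column of that table had a median log2 of 1.03. The ascorbate peroxidase contigs with most clones showed no difference beyond the spread. Contig 50, read by 7 clones, gave -0.20, 0.28 and -0.01, with a mean of 0.02 ± 0.24 (adjusted p of 0.973 from limma) and a 95% confidence interval of -0.31 to 0.36 on this scale, where the ratios of its dimmer clones are shrunk by the offset. Its 7 clones ranged from -0.05 to 0.20. Contig 870, read by 4 clones, gave -0.56, 0.45 and -0.25, with a mean of -0.12 ± 0.52 (adjusted p of 0.921 from limma).

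The cytosolic monodehydroascorbate reductase contig 3333, which recycles oxidized ascorbate, gave 0.58, -0.55 and 0.11 on the 3 slides. Replicates 1 and 2 lay on opposite sides of 0 by nearly the same size, and the mean was 0.05 ± 0.57 (adjusted p of 0.977 from limma). No direction can be read from it.

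With the offset used, 10 of 11 class III peroxidase contigs had means within 0.2 of 0 on the log2 scale. Only 4 of the 11 lay above the blank spots in both channels on every slide measured, so these small means do not show a lack of change. Of the 11, 3 had a higher and 8 a lower mean, and the family median was -0.04. The highest was contig 843 at 0.18, 0.02 and 0.12 (mean 0.11 ± 0.08, adjusted p of 0.662 from limma), although it lay above the blank spots on replicate 3 only, so its first pair of ratios carries no measured level. Contig 190, named from pineapple and read by 4 clones, was slightly lower on every slide at -0.02, -0.12 and -0.14 (mean -0.09 ± 0.07, adjusted p of 0.706 from limma). Its clone means ran from -0.26 to 0.06, and its mature yellow signal lay above the blank spots on 2 of 3 slides. With plain background subtraction its mean was -0.76 (adjusted p of 0.401 from limma), so its size depended on the processing. Contig 3059 was the contig whose mean lay further than 0.2 from 0. It lay at -0.57, -0.73 and -0.20, with signals of 45.5, 82.0 and 20.5 intensity units in mature yellow fruits and 75.5, 284 and 30.5 in mature green fruits. It was lower in mature yellow fruits on every slide by 1.42-fold in the mean (-0.50 ± 0.27), with an unadjusted p of 0.0194 (limma, adjusted p of 0.424).

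The class III peroxidase spots were dim. The brighter channel of a contig had a median of 48.6 intensity units on its brightest slide, 9 of the 11 contigs stayed under 200 units on every slide, and 2 of the 19 elements entered the authors' lists of spots past their test of 2 standard deviations on any slide, against 8 of 19 glutathione S-transferase, 7 of 12 ascorbate peroxidase and 7 of 7 peroxiredoxin elements. Counted per slide and not over any slide, these lists held 30.5%, 35.1% and 24.4% of all elements on replicates 1, 2 and 3. For the redox elements the shares were 35.6%, 42.5% and 23.3%. The offset pulls the ratios of the class III peroxidases toward 0, so differences in these contigs are understated. The same limit held over the whole set. Among 20 contigs under 200 units on every slide, 9 of them class III peroxidases and 8 glutathione S-transferases, 0 reached 1.5-fold and the largest absolute log2 ratio was 0.33. Among the 17 contigs with 200 units or more on some slide, 3 reached it. Over all features 5.24% reached it. All features were not split by brightness, so neither count is read as particular to the redox contigs. With plain background subtraction, which adds no offset and left 31 redox contigs measured, 12 reached 1.5-fold (38.7%, against 26.5% of all features), 5 of 14 dim contigs and 7 of the 17 brighter ones. Among the brighter ones contig 3059 then lay at -1.25 and the glutaredoxin contig 37 at 0.88 (adjusted p of 0.161 and 0.319 from limma). The limit of 200 units was chosen after the values were seen. The contigs 1067, 2953 and 2932 lay above the blank spots in neither channel on any slide, and 20 of the 37 lay above in both channels on every slide measured.

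The glutaredoxin contig 37 was higher in mature yellow fruits on every slide, without passing the adjusted test. Its 5 clones all had a higher mean in mature yellow fruits, from 0.12 to 0.75, and the contig gave 0.34, 0.70 and 0.27, or 1.36-fold in the mean. The unadjusted p was 0.0200 and the adjusted p 0.429 from limma. The brightest clone, JBW090D03, with 604, 1225 and 306 intensity units in mature yellow fruits and 266, 851 and 110 in mature green fruits, lay at 0.57, 1.07 and 0.59. The dimmer JBW096H11 lay at -0.03, 0.64 and 0.05, so that the brighter clone carried the larger ratios.

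Among the thioredoxins, contig 107's 4 clones all had a higher mean in mature yellow fruits as well (0.06 to 0.78), though the contig changed side with the dye swap (0.75, -0.11 and 0.42). Its mean was 0.35 ± 0.43, within the spread between the slides. Contig 2489 changed side on the dye swap too, at 0.39, -0.20 and 0.07 with a mean of 0.09 ± 0.29. Contig 3081 had a mean of -0.07. Contig 3451, a thioredoxin h-like protein with values on 2 slides, had a mean of -0.10, with mature yellow signal above the blank spots on 0 of them. The test passed for none of the 4 (adjusted p of 0.657 to 0.906 from limma).

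The 2 peroxiredoxin contigs gave bright but uneven readings. The 2-cys peroxiredoxin, read by contig 1366's single clone JBW054A07, had signals of 1681, 2159 and 4231 intensity units in mature yellow fruits against 367, 6381 and 1922 in mature green fruits. Yellow exceeded green where yellow carried Cy3, and green exceeded yellow on the dye swap. The normalized log2 ratios of 1.72, -0.71 and 1.21 averaged 0.74 ± 1.28 (adjusted p of 0.764 from limma). When stage and dye were fitted together, the stage term was 0.38, and the ratio with yellow in Cy3 exceeded that with yellow in Cy5 by 2.17 on the log2 scale (adjusted p of this difference 0.134 from limma). Yellow carried Cy5 on replicate 2 alone, so dye and slide cannot be told apart in this difference. The deposited processed values gave 2.44, 0.53 and 1.11, higher in mature yellow fruits on every slide (adjusted p of 0.0123 from limma), so even the side of replicate 2 depended on the processing. The replicate 3 column of that table was not centred on 0. Its 687 values had a median log2 of 1.03, against 0.14 and 0.06 on replicates 1 and 2, so a value of 1.11 was near the middle of its column.

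The change of side on the dye swap was shared by other contigs. Replicates 1 and 3 lay on one side of 0 and replicate 2 on the other for 12 of the 37 contigs (32.4%), against 29.1% of all features. In the fit with both terms, replicates 1 and 3 exceeded replicate 2 by 0.78 for the peroxisomal ascorbate peroxidase (adjusted p of 0.147 from limma). For contig 870 the same difference, from the dye or from that slide, was -0.85 (adjusted p of 0.174 from limma). One direction on every slide measured was seen for 14 of the 37 contigs, 7 higher and 7 lower, or 37.8% against 35.4% of all features.

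In the peroxiredoxin contig 21, 1 of 6 clones ran against the other 5. Clone JBW016B11 had 247, 357 and 55.8 intensity units in mature yellow fruits and 5434, 12881 and 23.2 in mature green fruits on replicates 1, 2 and 3. Its log2 ratios were -4.29, -4.14 and 0.08, a steep difference on the first pair of slides with none on replicate 3, where both signals were low. The other 5 clones had means of 0.13 to 0.79, and JBW013G06 (0.72, 0.80 and 0.84, mean 0.79 ± 0.06) was called when elements were fitted singly (adjusted p of 0.0233 from limma). The contig mean was -0.12 ± 0.47 (adjusted p of 0.914 from limma) with all 6 clones and 0.42 ± 0.22 (adjusted p of 0.435 from limma) without JBW016B11, so this clone set the direction. Of 193 elements on the array that lay below -2 on replicates 1 and 2 and were measured on replicate 3, 3 lay above 0 there, JBW016B11 among them, and 183 lay below -1. Many of these elements were clones of the same contigs, so they are not separate transcripts and the counts do not measure how rare this pattern was. JBW016B11 and JBW013G06 both took their contig number from later sequencing, so neither was picked independently of its values. With both left out, a setting chosen after seeing the data, the contig mean was 0.32 (adjusted p of 0.480 from limma). The clones were singled out after their values were seen, and the cause was not tested.

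**Figure D3:**
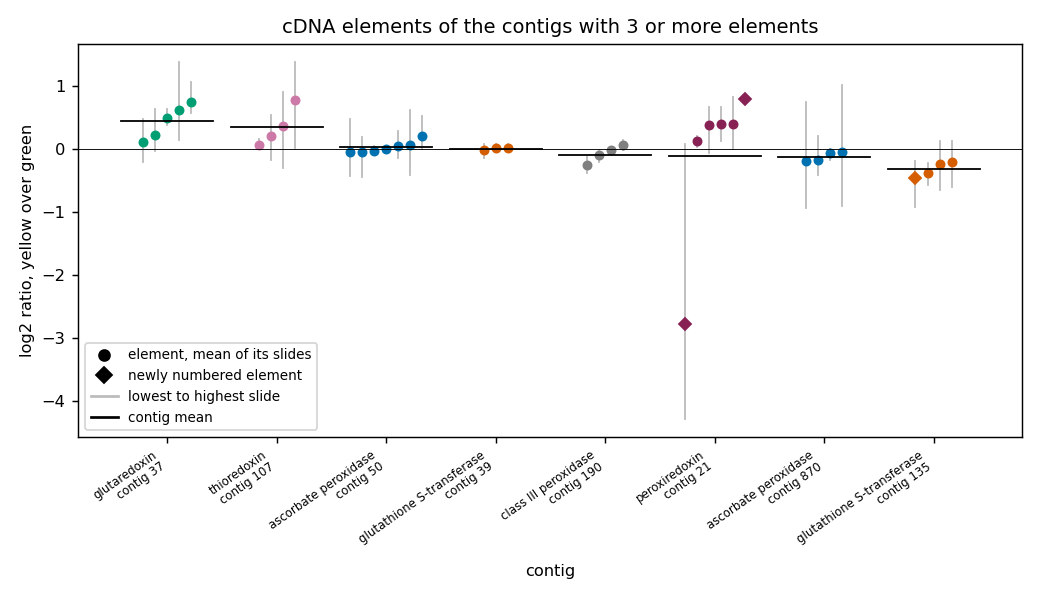
Log2 ratio of mature yellow over mature green fruits (vertical axis) of the single cDNA elements in the 8 redox contigs with at least 3 elements. Points are the mean of an element over its slides, diamonds are elements numbered after later sequencing, grey lines run from its lowest to its highest slide, and the black bar is the contig mean. All elements of the glutaredoxin and the thioredoxin lie above 0, those of contig 135 lie below it, and contig 21 has 1 element at -2.78 beside 5 between 0.13 and 0.79.

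Glutathione S-transferases, class III peroxidases and ascorbate peroxidases were compared by their median log2 ratio on each slide, without a p since members are not replicates and 3 slides cannot give a two-sided exact p below 0.25. The glutathione S-transferase median was 0.02, -0.004 and 0.01 on replicates 1, 2 and 3, the class III peroxidase median -0.02, -0.07 and 0.01, and the ascorbate peroxidase median -0.20, 0.28 and -0.01. Glutathione S-transferases lay above class III peroxidases by 0.04, 0.07 and 0.002, a mean of 0.04 ± 0.03 that is small beside the range within either family. Ascorbate peroxidases differed from class III peroxidases by -0.19, 0.35 and -0.01 and from glutathione S-transferases with as much change of sign, and no order is read from these medians. Under 200 units on every slide lay 8 of the 12 glutathione S-transferases, 9 of the 11 class III peroxidases and 0 of the 3 ascorbate peroxidases, so the offset shrank the families unequally. The mean was higher in mature yellow fruits for 7 of the glutathione S-transferases and lower for 5, and higher for 2 ascorbate peroxidases and lower for 1.

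Other genes of redox balance were taken by name and comprised 19 features. Their mean was higher in mature yellow fruits for 12 of the 19 (against 53.2% of all features), 3 were higher by 1.5-fold or more (3.18% of all features), 0 were lower by that much, and 0 were called (0.129% of all features). By limma the unadjusted p was under 0.05 for 5 of the 19, all of them higher, against 8.95% of all features (5.43% higher). Superoxide dismutases, which make hydrogen peroxide from superoxide, supplied 5 features, of which 3 were higher and 2 reached 1.5-fold. Cysteine synthases, which supply cysteine for glutathione, had 1 of 3 features at that fold, and 0 of 4 ferredoxin, 0 of 2 metallothionein and 0 of 5 germin features reached it.

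**Figure D4:**
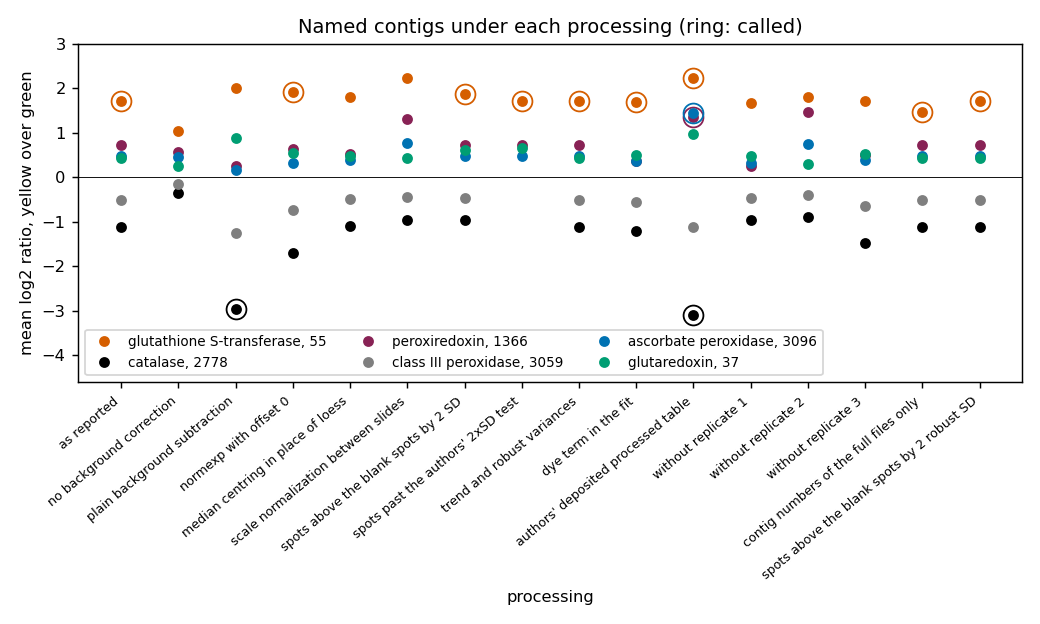
Mean log2 ratio of mature yellow over mature green fruits (vertical axis) of the 6 named redox contigs with the largest mean, in either direction, under each way of processing (horizontal axis), with a ring where the contig was called. The glutathione S-transferase contig 55 stays above 1 in every setting drawn, the catalase contig 2778 ranges from -3.08 to -0.35, and the peroxiredoxin and the ascorbate peroxidase stay above 0.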

How the data were processed

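Deposited were the uncorrected scanner intensities of each channel and of the surrounding background for every spot, as medians (replicates 1 and 2) or means (replicate 3) over the pixels. Contig numbers of 413 further elements came from the authors' files of spots past a test of 2 standard deviations. A processed table from the authors holds a score per contig. It was read as the ratio, or minus its reciprocal below 1, with the dye-swap column not yet turned, a scale and direction inferred from its correlation with the normalized ratios (0.84, -0.86 and 0.81 before turning). Its centring is unknown. It was used only as an alternative (7 values between -1 and 1 were left out). Per-sample columns left unused number 0.

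In R 4.3.3 with limma 3.58.1, abnormal spots were removed, background was corrected (normexp, offset 50), and within-slide loess was fitted without blank or control spots. The offset shrinks ratios of dim spots, so the folds of dim contigs are understated. Ratios were turned to log2 of mature yellow over mature green. Duplicate spots, then elements of one contig, were averaged. Features on at least 2 slides were fitted with an intercept and moderated variances (prior degrees of freedom 1.65), with Benjamini-Hochberg adjustment. A channel counted as above the blanks past their median plus 2 robust SD.

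The members and all gene lists were chosen with earlier results of these data known. Named were contigs 37, 55, 107 (thioredoxin), 1008 (glutathione reductase), 1366 (2-cys peroxiredoxin) and 3096 (peroxisomal ascorbate peroxidase), any called, any of 1.5-fold in one direction, and in each family the highest, the lowest and the one with most clones. Others named were chosen after their values were seen.

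Scripts were tested on simulated data with known changes. With the offset of 50, few of the changes planted over all features were called, and their size was understated. The number of arrays, 3, limits the precision. Plots used Python 3.11.15 and matplotlib 3.10.9.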

Additional observations from a re-analysis of the deposited data

How the results depend on the processing

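Of 17 named contigs, 13 kept their direction in every alternative that gave them a value (9 to 17 alternatives) and 4 turned in at least 1. Contig 55 kept its call in 9 of 17 alternatives. With the settings in the report, 10 features were called, 40% of them higher in mature yellow fruits, with 1 redox contig called and 3 at 1.5-fold. The cause of each difference below was not tested, except that leaving out a slide or keeping brighter spots leaves fewer values. Features called, redox contigs called and redox contigs at 1.5-fold came to 18, 0 and 1 with no background correction (22.2% higher). They were 59, 1 and 12 with plain subtraction, which left 7162 features and 31 redox contigs. The redox contig called there was the catalase contig 2778, and contig 55 lost its call (adjusted p of 0.0509 from limma). With an offset of 0 the counts were 34, 1 and 5 (32.4% higher). In the deposited processed values, which held 2221 features and 23 redox contigs on at least 2 slides, they were 138, 4 and 10 (76.8% higher). Contigs 55 and 2778, the 2-cys peroxiredoxin and the peroxisomal ascorbate peroxidase were called in these values. With elements kept apart, 222 of 9275 elements were called (21.2% higher). Of the 73 redox elements 3 were called, from contigs 21 and 55, and 9 reached 1.5-fold. Features and redox contigs called were 6 and 0 with median centring (16.7% higher), 0 and 0 with scale normalization between slides (limma, 170 features and 1 redox contig at 1.5-fold with an unadjusted p under 0.05), 212 and 2 by an ordinary test of the 3 log2 ratios at an unadjusted p under 0.1, and 0 and 0 by that test after adjustment (126 and 1 at an unadjusted p under 0.05). Features called were 92 of 2417 with spots above the blanks by 2 SD, 110 of 2127 with spots past the authors' test, 28 of 7773 with trend and robust variances, and 68 of 7618 with a dye term. Leaving out a replicate gave 0 to 5 features and 0 redox contigs called in each case (limma, 189 to 432 features and 1 to 4 redox contigs at 1.5-fold with an unadjusted p under 0.05). Among alternatives chosen after seeing the data, contig numbers of the full files only called 227 of 8176 features and spots above the blanks by 2 robust SD called 18 of 7072.

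Contig 3333 turned to -0.0079 with no background correction, -0.10 with a dye term and -0.22 without replicate 1 (leaving out a replicate gave -0.22 to 0.34). Contig 50 turned to -0.0067 with plain subtraction, -6.03e-05 with an offset of 0, -0.012 with either filter on dim spots and -0.10 without replicate 2 (range -0.10 to 0.14). Contig 870 turned to 0.021 with a dye term and 0.099 without replicate 1 (range -0.41 to 0.099). Contig 21 turned to 0.17 with scale normalization, 0.66 in the deposited values, 0.10 without replicate 1 (range -0.36 to 0.10), and, chosen after seeing the data, 0.32 with contig numbers of the full files and 0.42 without clone JBW016B11. No paired analysis was possible because the slides form 1 group with no second group of the same replicate numbers, beside the pairing of the 2 stages within each slide that the fit already uses. The offset of 50 shrinks the ratios of dim contigs.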
